A study of Homo sapiens with 4 samples.

Results

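The cells described here are 65 of 1146 single MCF10A cells that stood above their plate's median in a mesenchymal (M) and in an epithelial (E) score at once, and they are called dual-score cells. The M score was the mean of ln(1 + counts per 10000) over FN1, VIM, EMP3, TPM2 and SNAI2, and the E score the same over CDH1, EPCAM, CD24, AP1M2 and CLDN7. Members were chosen by both scores lying above the medians of their plate and by M minus E lying between the 25th and 75th percentiles of the plate. The cells below the 25th percentile of M minus E are called the epithelial end (287 cells), those above the 75th the mesenchymal end (287 cells), and the 507 cells between them that were not chosen the other middle cells.

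MCF10A is an untransformed human mammary epithelial line, and all cells of the study carried H2B-GFP. Circular patches were grown for 6 days on fibronectin-coated dishes. The only treatment was phototagging, in which 2 photoactivatable dyes were given in turn and light was aimed at the outer and then the middle cells. Live cells were sorted into 384-well plates, 1 plate per sample. In the low-resolution experiment (2 plates) the patch was divided into 3 rings 1000 to 1500 μm wide, and in the high-resolution experiment (2 plates) into an outermost band of 250 μm, the next 250 μm and the inside. Regions were not analysed here, so that a plate stands for all regions of its sample. The plates are named low 1, low 2, high 1 and high 2. A single line in culture limits the model. The samples of an experiment are biological replicates of patches, and how many patches each holds is not given in the sources used here.

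In epithelial-to-mesenchymal transition (EMT), epithelial cells loosen the junctions that E-cadherin (CDH1) and EPCAM help to hold and take up the cytoskeleton and matrix of migrating cells, of which vimentin (VIM) and fibronectin (FN1) are common markers. The SNAI, ZEB and TWIST transcription factors repress junction genes, while OVOL and GRHL factors maintain them. Cells between the ends of the transition, with features of both states, are called hybrid or partial EMT cells.

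The median cell held between 30118 and 40893 UMIs (distinct molecules) per plate. By its file name, low 1 was run on a flow cell of its own, and the remaining 3 plates shared a second. Markers of fibroblasts, immune cells and endothelium together stayed under 1 count per 10000 in every plate, in all cells and in dual-score cells. The immune list ranged from 0.137 to 0.703 per 10000 in dual-score cells and from 0.265 to 0.572 in all cells, and the fibroblast list from 0.0315 to 0.205 and from 0.0728 to 0.144. No cell repeated the profile of another.

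Dual-score cells were few in every plate. There were 20 of 291 cells in low 1 (6.87%, exact 95% binomial interval 4.25 to 10.4), 18 of 271 in low 2 (6.64%, 3.98 to 10.3), 13 of 291 in high 1 (4.47%, 2.40 to 7.52) and 14 of 293 in high 2 (4.78%, 2.64 to 7.89). The intervals overlapped, and they cover counting error only. Altogether 69 cells were above both medians, 4 of which fell into one of the ends, and 73 cells were at or below both. Cutting both scores at their medians ties these counts to each other. The share of dual-score cells is set in part by the rule and is a description.

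The limits were set within each plate, and the cells they chose differed in kind between the experiments. The median M of a plate was 0.488, 0.449, 1.21 and 1.05 in low 1, low 2, high 1 and high 2, and the median E was 0.982, 1.10, 0.585 and 0.621. Median M minus E of the members was -0.72 in low 1 and -0.73 in low 2, against 0.868 in high 1 and 0.376 in high 2. E was above M in 36 of the 38 low-resolution members, and M was above E in 24 of the 27 high-resolution members. Among cells that met the E limit, the lowest M inside was 0.489, 0.449, 1.23 and 1.08 and the highest outside 0.488, 0.449, 1.21 and 0.983. Among cells that met the M limit, the lowest E inside was 1.03, 1.12, 0.588 and 0.622 and the highest outside 0.982, 1.08, 0.585 and 0.621. These values chose the cells and are a description.

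**Figure D1:**
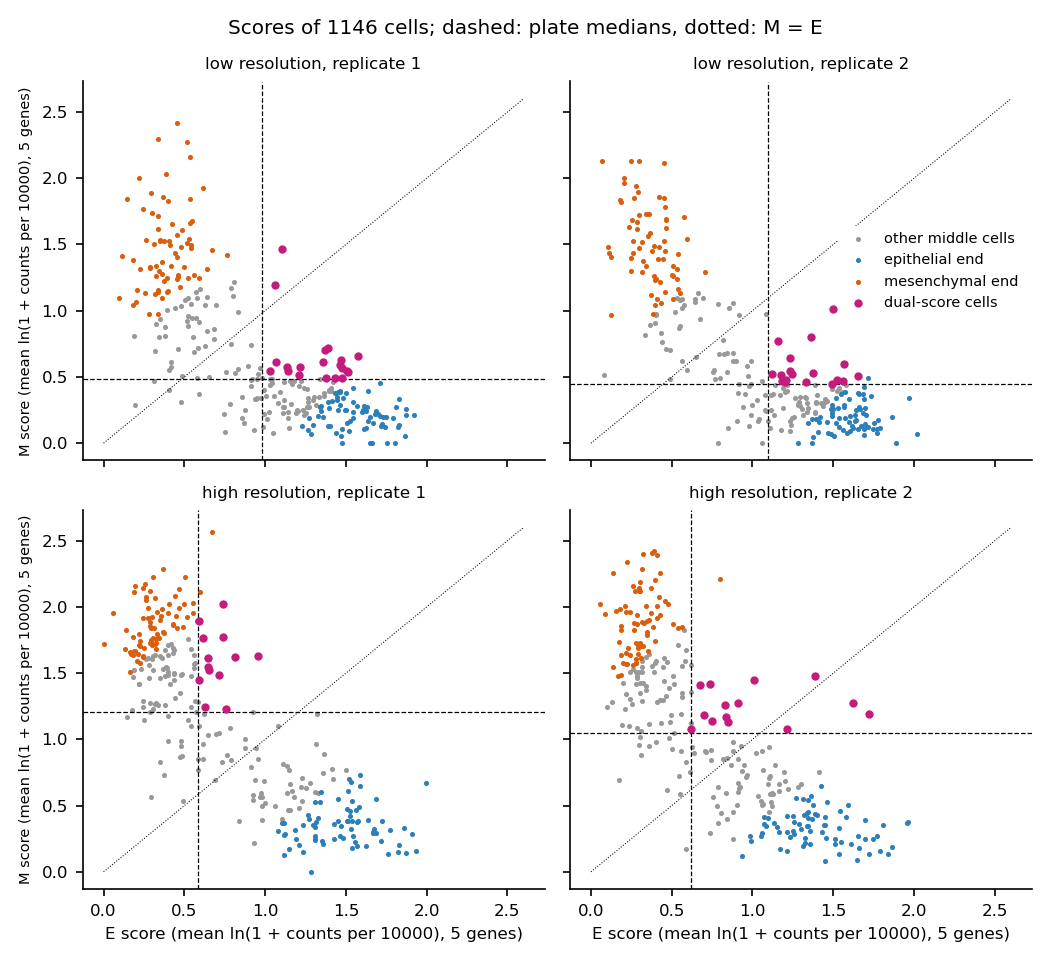
The M score is plotted against the E score for each of the 1146 cells, 1 panel per plate, with dashed lines at the plate medians and a dotted line where M equals E. The dual-score cells lie mostly below the dotted line in the low-resolution plates and mostly above it in the high-resolution plates.

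The 4 markers of the label did not all stand high. CDH1 averaged 1.22, 1.10, 0.126 and 0.551 counts per 10000 in the dual-score cells of low 1, low 2, high 1 and high 2, against 0.706, 0.705, 0.409 and 0.463 in all cells of those plates. It was thus above the plate average in 3 plates, with high 1 the exception. EPCAM averaged 1.73, 1.46, 0.274 and 0.652, which was above all cells in the low-resolution plates alone.

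FN1 averaged 3.75, 1.46, 30.9 and 14.4 counts per 10000, which was above all cells in both high-resolution plates and, in high 1, also above the mesenchymal end (22.5). VIM averaged 0.1502, 0.167, 0.736 and 0.457, below the average of all cells in every plate (0.724, 0.658, 1.43 and 1.54) and below the mesenchymal end (2.34, 2.42, 4.12 and 5.00). Dual-score cells were thus above the plate average for CDH1 in 3 plates, EPCAM in 2, FN1 in 2 and VIM in 0 of 4. That average takes in the mesenchymal end, which was high in VIM and which the rule leaves out. The standing for VIM is thus set in part by the choice. Compared with the other middle cells, they were higher for CDH1 in 3 plates, EPCAM in 2, FN1 in 3 and VIM in 1. The name hybrid, in the sense of high in all 4 markers, was not borne out by either comparison. Of the other score genes, the tropomyosin TPM2 was above the average of all cells in 4 plates, SNAI2, AP1M2, CD24 and CLDN7 in 3 and EMP3 in 1.

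**Figure D2:**
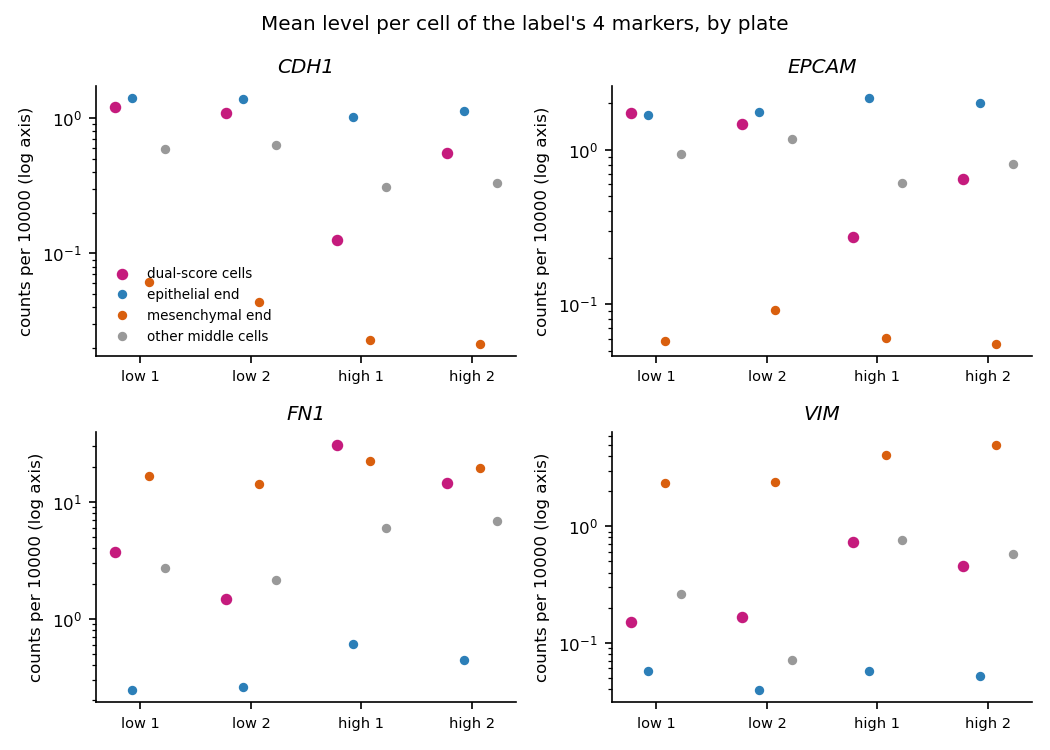
Mean counts per 10000 (log axis) of CDH1, EPCAM, FN1 and VIM are shown for each cell group in each plate, 1 point per plate and group. The dual-score points for VIM lie between both ends in every plate, and those for FN1 rise above the mesenchymal end in high 1.

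Detection of both kinds of marker in one cell was common in these cells, as the rule favours. A UMI of CDH1 or EPCAM together with one of FN1 or VIM was found in 53 of 65 dual-score cells (81.5%), against 62.4% of the epithelial end, 29.3% of the mesenchymal end and 61.3% of the other middle cells. In high 1 the share was 69.2%, below the epithelial end of that plate (78.1%). With every cell thinned to 10000 UMIs, they were found together in 39 of 65 dual-score cells, against 33.2% in the epithelial end, 10.6% in the mesenchymal end and 25.1% in the other middle cells. All 4 markers were detected in 16 of 65 cells at full depth (24.6%), against 10.8%, 3.14% and 10.5% in those groups, and in 1 of 65 at 10000 UMIs.

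Membership depended on sampling of the molecules. When the UMIs of each cell were divided at random into 2 parts, 29 of the 71 cells chosen on the first part were chosen again on the second (40.8%). The share was 80.5% for the epithelial end and 82.6% for the mesenchymal end, which are larger groups and so agree more often by chance alone. Both choices rested on fewer UMIs than the full cells hold. Of the 65 cells themselves, 45 were chosen on the first part (69.2%), whose UMIs also entered the full choice. With limits common to all plates, a choice made after seeing the data, there were 50 dual-score cells (3, 7, 17 and 23 per plate), and 13 of them were among the 65 (20.0% of the 65, 26.0% of the 50).

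The cells were not uniformly deep. Their median was 25904, 29819 and 24023 UMIs in low 1, low 2 and high 1, and 61574 in high 2. In high 2 it was above that of every other group, and in the other 3 plates it was below every other group. Of the 65, 4 (6.15%) were in the highest 10% of UMIs of their plate. Doublets were not called, and their part in the dual scores was not tested.

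Mitochondrial transcripts took about the share they had in the other middle cells, from which the difference was 0.232 ± 1.21 percentage points (SD, n = 4 plates, exact sign-flip permutation p = 0.75). The median share was 30.0%, 30.1%, 30.4% and 29.0% in the dual-score cells of the 4 plates. Its difference from the epithelial end was -3.26 ± 0.382 percentage points (SD of the difference, n = 4 plates, below 0 in 4 of 4) and from the mesenchymal end 2.93 ± 1.24 points (above 0 in 4 of 4). The exact sign-flip permutation test (two-sided) gave p = 0.125 for both ends, the smallest that 4 plates allow, and 0.375 after adjustment over the 18 measures and groups compared. Total counts enter the scaling of the scores, so this measure is not free of the rule.

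Genes outside the choosing scores were then examined, with the 10 score genes left out of every test. The counts of the dual-score cells of a plate were summed, to 594206, 597991, 386933 and 770685 counts in low 1, low 2, high 1 and high 2, and are given as CPM (counts per 1000000 of the sum). Sums were compared by edgeR's quasi-likelihood test with the plate as a block. The epithelial and mesenchymal panels are lists of EMT genes used by the study, of which 50 and 47 were tested outside the scores.

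On the epithelial panel, the dual-score cells of the low-resolution plates stood near the epithelial end. Mean log2(CPM + 1) over the 50 genes was 5.53, 5.54, 3.47 and 4.45 in low 1, low 2, high 1 and high 2. On a line from the epithelial end (0) to the mesenchymal end (100%), this was 12.3%, 9.10%, 88.5% and 41.7% of the way. On the mesenchymal panel the positions were 30.6%, 15.0%, 79.3% and 60.1%. Panel genes run with the scores that made the groups, so these positions are a description.

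**Figure D3:**
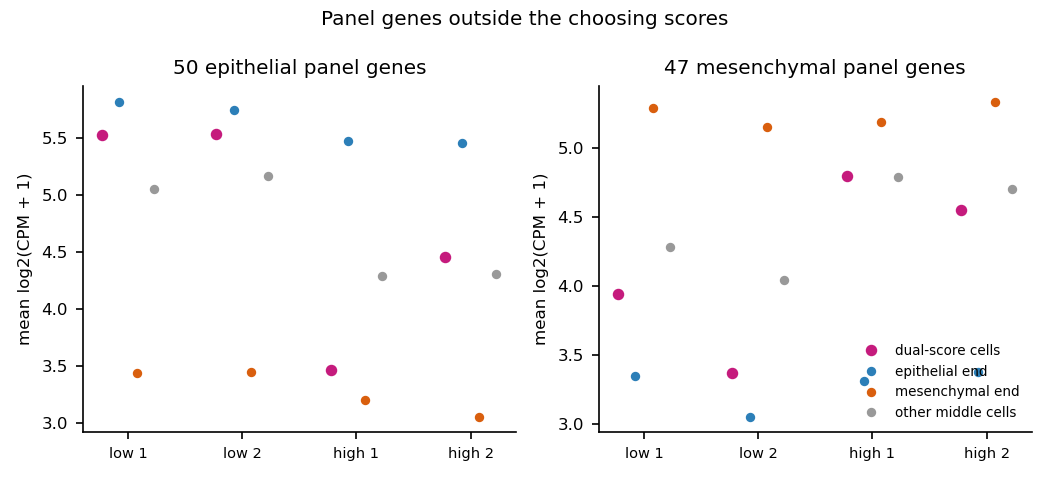
Mean log2(CPM + 1) over 50 epithelial and 47 mesenchymal panel genes outside the scores is shown for each cell group in each plate. On the epithelial panel the dual-score cells lie next to the epithelial end in both low-resolution plates and nearest to the mesenchymal end in high 1. On the mesenchymal panel they lie nearest to the epithelial end in low 2 and to the other middle cells in low 1, high 1 and high 2.

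Against each end alone, many genes differed, as the cutting of the same cells by M minus E entails, and nothing is read from these totals. Against the epithelial end, 437 of 10575 genes tested were higher (4.13% of all genes) and 297 lower (2.81%). Against the mesenchymal end, 831 were higher (7.86%) and 609 lower (5.76%). The 734 calls against the epithelial end became 276 without high 1 and 166 without high 2, and the 1440 against the mesenchymal end became 688 without low 1 and 709 without low 2.

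Of the 50 epithelial panel genes, 13 were lower and 2 higher than in the epithelial end (median log2 difference -0.69, all genes -0.01), and 38 were higher than in the mesenchymal end with none lower (median 2.27, all genes -0.01). The 2 that were higher than in the epithelial end were GDF15, a secreted stress cytokine, and SDC4, a cell-surface proteoglycan. Of the 47 mesenchymal panel genes, 20 were higher and none lower than in the epithelial end (median 1.21), while 22 were lower and 1 higher than in the mesenchymal end (median -0.78). That 1 gene was CYP1B1, a cytochrome P450. Of all genes, 4.13% were higher and 2.81% lower than in the epithelial end. Against the mesenchymal end 7.86% were higher and 5.76% lower.

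Among 11 genes tested of desmosomes, junctions that tie cells together, 5 were lower than in the epithelial end (DSC2, DSP, EVPL, PERP and PPL) and 9 higher than in the mesenchymal end. DSP, which links desmosomes to keratin, differed by -0.71 (SE 0.11, edgeR adjusted p = 0.00142) and 1.56 (SE 0.12) on the log2 scale. Among 13 tight-junction genes, 3 were lower than in the epithelial end (CLDN1, CLDN4 and OCLN) and 10 higher than in the mesenchymal end. Of all genes, 2.81% were lower than in the epithelial end and 7.86% higher than in the mesenchymal end. The groups were cut along M minus E, so the counts of both junction lists are a description.

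The split between experiments showed in these lists too, in contrasts chosen after seeing the data. In the low-resolution plates 2 of 50 epithelial panel genes were lower than in the epithelial end and 2 higher (all genes: 0.993% lower, 1.86% higher), and 41 were higher than in the mesenchymal end with none lower (all genes: 8.86% higher, 7.91% lower). In the high-resolution plates 25 were lower than in the epithelial end and 2 higher (all genes: 4.85% lower, 6.16% higher), and 19 were higher than in the mesenchymal end with none lower (all genes: 3.02% higher, 1.8% lower). Of the 47 mesenchymal panel genes, 28 were lower and 1 higher than in the mesenchymal end at low resolution. At high resolution 4 were lower and 3 higher. Against the epithelial end, 3 were higher and none lower at low resolution, and 30 were higher and 1 lower at high resolution. The shares of all genes are those given above for each contrast.

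A list of 33 genes linked to partial EMT, many of them matrix and adhesion genes, had 30 tested members. Of these, 19 were higher than in the epithelial end and none lower (median 0.95), beside 4.13% of all genes higher and 2.81% lower. Against the mesenchymal end 12 were lower and 4 higher (median -0.28), beside 5.76% of all genes lower and 7.86% higher. The 4 were COL17A1 and ITGB6, which anchor epithelial cells to the matrix, the laminin chain LAMA3, and PLAUR, the urokinase receptor. The groups were cut along M minus E, so these counts are a description.

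Among EMT transcription factors, 8 were tested against both ends combined, and edgeR called 0 (1 at an unadjusted p under 0.05, 0 by DESeq2). TWIST1 was 45.4, 43.5, 36.2 and 42.8 CPM in the dual-score cells of low 1, low 2, high 1 and high 2, and was higher than in the epithelial end (log2 difference 0.73, SE 0.20, edgeR adjusted p = 0.0344). ZEB1 was 0, 0, 20.7 and 3.89 CPM, against 17.6, 15.4, 19.3 and 15.0 in the mesenchymal end, so that the groups overlapped through high 1 alone. ZEB1, ZEB2 and TWIST2 were lower than in the mesenchymal end, with log2 differences of -1.75, -1.85 and -0.99. By experiment, in contrasts chosen after seeing the data, these 3 were called lower at low resolution. At high resolution edgeR called 0 of 7 factors tested against the mesenchymal end (1 at an unadjusted p under 0.05). SNAI1, TCF4, KLF8 and FOXC2 differed from both ends combined by 0.41, -0.26, -0.07 and -1.87, none of them called.

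Factors proposed to hold cells in a hybrid state gave a similar result: of 8 tested against both ends combined, edgeR called 0 (1 at an unadjusted p under 0.05, 0 by DESeq2). The log2 differences were 0.30 for OVOL2, 0.01 for OVOL1, 0.29 for GRHL2, 0.59 for CDH3 (P-cadherin), -0.04 for NUMB, -0.36 for NOTCH1, 0.26 for JAG1 and -0.01 for NFE2L2. Against the mesenchymal end 4 of the 8 were higher, namely CDH3, GRHL2, OVOL1 and OVOL2, beside 7.86% of all genes. OVOL2, a repressor of ZEB1, was 28.6 and 30.1 CPM in low 1 and low 2 but 0 and 3.89 CPM in high 1 and high 2, where a count of 0 in high 1 allows up to 7.75 CPM.

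Set against both ends summed as 1 group, so that the comparison is with their pooled level, 7 of 11361 genes were called (0.0616% of all genes), 6 higher and 1 lower. The number was 2 without low 1, 4 without low 2, 42 without high 1 and 0 without high 2, and it was 133 by DESeq2. LAMA3 (chromosome 18), a chain of the basement-membrane laminin that anchors epithelium, was 284, 100, 367 and 698 CPM in the dual-score cells of low 1, low 2, high 1 and high 2. It was 73.7, 71.4, 98.9 and 135 CPM in the epithelial end and 162, 79.2, 94.2 and 108 in the mesenchymal end. In each plate the dual-score cells were the highest of the 4 groups, with low 2 the closest. The log2 difference from both ends was 1.64 (SE 0.25, edgeR adjusted p = 0.0174), and from the other middle cells 1.00 (SE 0.27, adjusted p = 0.0793).

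CLIC3 (chromosome 9), a chloride channel family protein of late endosomes, was 183, 135, 145 and 173 CPM in dual-score cells, against 82.9, 85.7, 87.1 and 104 in both ends combined. Every dual-score value was above every value of the ends combined. The log2 difference was 0.84 (SE 0.13, edgeR adjusted p = 0.0174), and it was 0.94 (SE 0.14, adjusted p = 0.00961) from the other middle cells. Against the epithelial end alone it was 0.34 (adjusted p = 0.166).

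DMKN (chromosome 19), a secreted protein of stratified epithelium, was 125, 119, 134 and 136.2 CPM in dual-score cells and 68.3, 74.3, 97.7 and 88.1 CPM in both ends, without overlap (log2 difference 0.68, SE 0.11, edgeR adjusted p = 0.0219). HIST1H2BK (chromosome 6), a histone H2B gene, was 266, 278, 336 and 274 CPM against 206, 191, 195 and 160, again without overlap (0.64, SE 0.10, adjusted p = 0.0174). Histone H2B genes are near-identical and the cells carry an H2B transgene, so reads could be shared among them. CLIC3, DMKN and HIST1H2BK were the 3 of the 7 that were also called against the other middle cells.

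The keratins KRT5 and KRT6A (both chromosome 12), of basal and of activated keratinocytes, completed the rises. KRT5 was 2696, 2928, 2339 and 3110 CPM in dual-score cells and 1206, 1346, 1880 and 2018 in both ends (log2 difference 0.82, SE 0.11, edgeR adjusted p = 0.0102). KRT6A was 1959, 2457, 2680 and 3340 CPM against 1383, 1136, 1981 and 2088, with overlap between plates but higher dual-score values in each plate (0.70, SE 0.09, adjusted p = 0.00957). The other middle cells had 2286 to 2503 CPM of KRT5, and neither KRT5 (adjusted p = 0.466) nor KRT6A (0.952) was called against them. KRT6A shares sequence with other KRT6 genes, so its count is uncertain to that extent.

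SPRR1B (chromosome 1), a cornified envelope precursor, was the gene that was lower, at 16.8, 43.5, 7.75 and 9.08 CPM against 150, 88.5, 106 and 68.0 in both ends (log2 difference -2.37, SE 0.34, edgeR adjusted p = 0.0174). The level of both ends came from the epithelial one, at 298, 174, 184 and 143 CPM, while the mesenchymal end had 4.30, 5.12, 10.0 and 3.00 CPM. With the midpoint of the ends taken on the log scale the difference was -0.76 (adjusted p = 0.531).

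**Figure D4:**
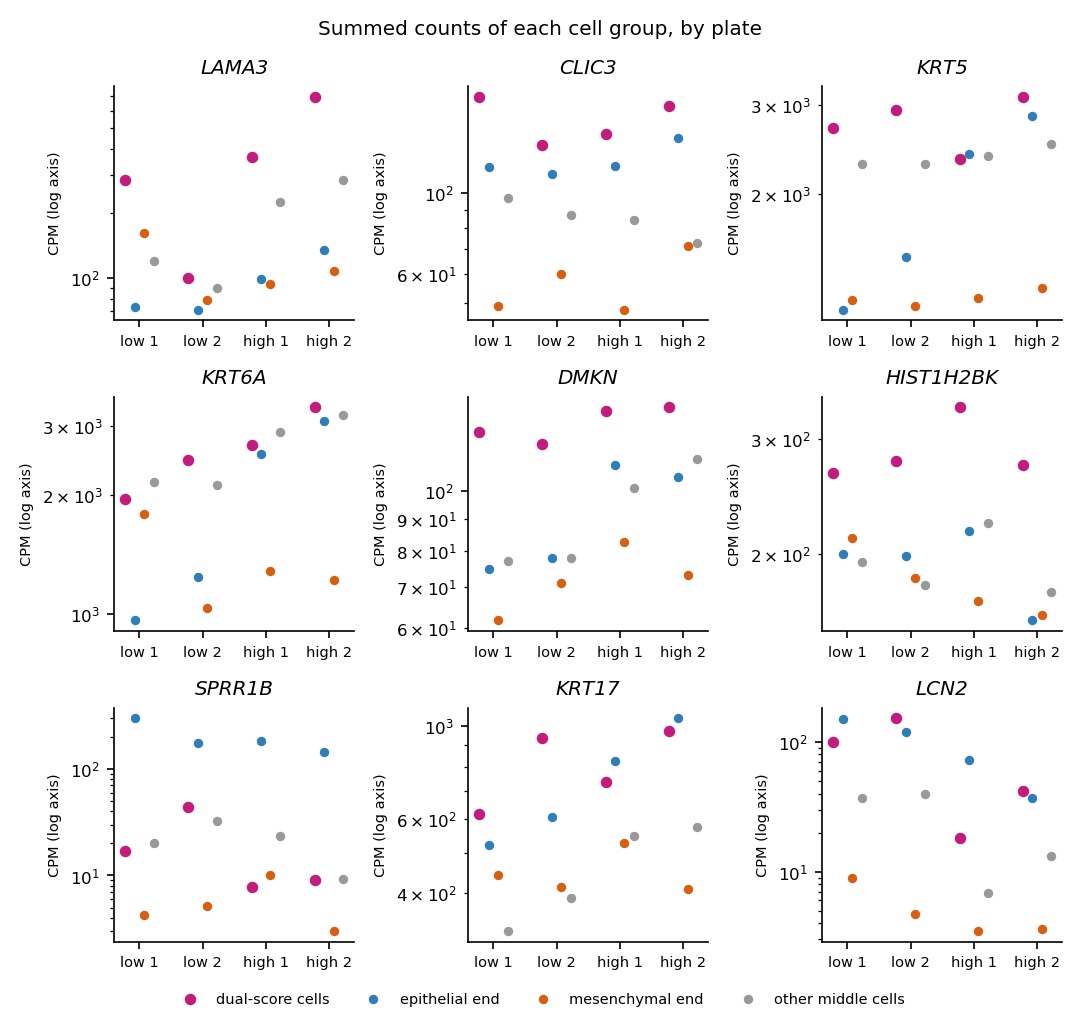
CPM (log axis) of 9 genes is shown for each cell group in each plate, from summed counts. The dual-score points are the highest of the 4 groups in every plate for LAMA3, CLIC3, DMKN and HIST1H2BK, whereas for KRT5 the epithelial end is higher in high 1 and for KRT6A the other middle cells are higher in low 1 and high 1.

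Keratins as groups were high relative to the mesenchymal end. Of 7 basal keratins, 6 were higher than in the mesenchymal end (median 1.19), beside 7.86% of all genes. Against the epithelial end edgeR called 0 (2 at an unadjusted p under 0.05, 0 by DESeq2, median 0.12). By experiment, in contrasts chosen after seeing the data, the calls went opposite ways. At low resolution KRT5 and KRT6A were higher and none lower (all genes: 1.86% higher, 0.993% lower). At high resolution KRT15, KRT16 and KRT6B were lower and none higher (all genes: 4.85% lower, 6.16% higher). All 4 luminal keratins were higher than in the mesenchymal end (median 1.28). KRT15 was 2132, 1860, 393 and 1362 CPM in dual-score cells and 190, 112, 31.7 and 42.9 in the mesenchymal end.

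The other middle cells lie within the same limits of M minus E but were not matched to the dual-score cells inside them. Their median M minus E was -0.511, -0.730, 0.533 and 0.504 in low 1, low 2, high 1 and high 2. That of the dual-score cells was -0.723, -0.728, 0.868 and 0.376. In low 2 no dual-score cell was above -0.386, and in high 1 none was below 0.470. Genes that run with M minus E can therefore differ in this comparison too. Of 10575 genes tested, 30 were higher (0.284% of all genes) and 47 lower (0.444%) in dual-score cells. The 77 calls became 0 without low 1, 0 without low 2 and 18 without high 2, and 262 by DESeq2.

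Of the 47 lower genes, 20 were in a list of G2/M genes, which act in mitosis, and 3 in a list of S-phase genes. Of 54 G2/M genes, all tested, 20 were lower and none higher than in the other middle cells (median -1.16, all genes 0.01), and 51 of the 54 were lower in all 4 plates. Against the mesenchymal end 31 were lower (median -0.999), beside 5.76% of all genes. Against the epithelial end edgeR called 0 (5 at an unadjusted p under 0.05, 2 by DESeq2, median -0.33). Of 42 S-phase genes, 3 were lower than in the other middle cells (MCM5, NASP and UHRF1, median -0.70), and 39 were not called. Of all genes, 0.444% were lower than in the other middle cells.

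ASPM (chromosome 1), a spindle pole protein, was 20.2, 11.7, 7.75 and 31.1 CPM in dual-score cells and 95.001, 65.1, 67.8 and 77.3 in the other middle cells, without overlap (log2 difference -1.94, SE 0.29, edgeR adjusted p = 0.00961). The mitotic kinesin KIF20A was 10.1, 8.36, 7.75 and 28.5 CPM against 59.8, 55.9, 47.3 and 70.9 (-1.96, SE 0.35, adjusted p = 0.0137). PBK, a mitotic kinase, CEP55, which acts in abscission, and HMMR, a spindle protein, differed by -1.90, -1.87 and -1.84. High 2 had the highest dual-score value of each of these 5 genes.

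Counted by cells, 10 of 65 dual-score cells (15.4%) were above the 75th percentile of their plate in the share of S or of G2/M counts, against 42.2% of the other middle cells, 42.2% of the mesenchymal end and 21.3% of the epithelial end. By plate it was 15.0%, 16.7%, 0% and 28.6%, against 32.8%, 36.8%, 48.5% and 49.6% in the other middle cells. The 0 of 13 cells in high 1 allows a share of up to 23.1%. The difference from the other middle cells was -26.9 ± 14.5 percentage points (SD, n = 4 plates, lower in 4 of 4, exact sign-flip permutation p = 0.125, the smallest possible). The 20 G2/M calls became 0 without low 1 (median -1.05), 0 without low 2 (-1.07), 28 without high 1 (-1.03) and 8 without high 2 (-1.59), and 37 by DESeq2 (-1.22). With cells thinned to 10000 UMIs before the choice, no G2/M gene was called (0 of 51 tested, median -0.32). Depth moved with this result in 3 plates, where dual-score cells had fewer UMIs, and its part was not tested.

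**Figure D5:**
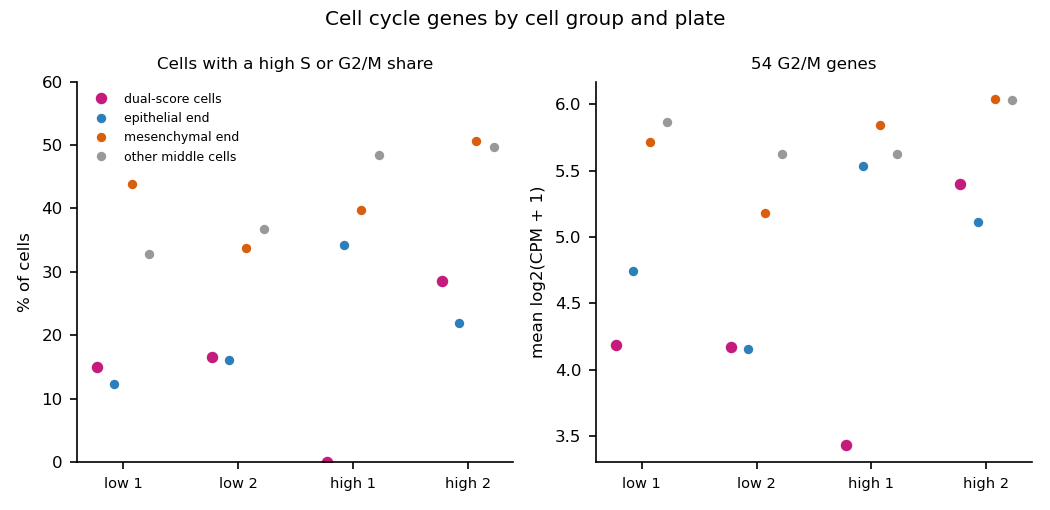
The left panel shows the percent of cells of each group with a high S or G2/M share, by plate, and the right panel mean log2(CPM + 1) over 54 G2/M genes. The dual-score cells lie below the other middle cells and the mesenchymal end in every plate of both panels.

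Among the 30 genes that were higher than in the other middle cells, LCN2 (chromosome 9), an iron-binding defence protein, was 99.3, 152, 18.1 and 41.5 CPM in dual-score cells and 36.9, 39.7, 6.84 and 13.1 in the other middle cells (log2 difference 1.78, SE 0.28, edgeR adjusted p = 0.011). HIST1H2BD, another histone H2B gene, was 55.5, 53.5, 41.4 and 26.0 CPM against 26.2, 22.7, 14.8 and 12.5 (1.22, SE 0.16, adjusted p = 0.00427). CCDC80, a matrix protein, and ITGB2, an integrin chain best known from leukocytes, differed by 1.12 (SE 0.21) and 0.98 (SE 0.19). KRT17, a keratin of basal and activated epithelium, was 618, 938, 737 and 972 CPM against 325, 389, 547 and 575 (0.90, SE 0.15, adjusted p = 0.011). The dual-score value was the higher in every plate for each of these 5 genes. With limits common to all plates, LCN2 and ITGB2 turned to -0.46 and -0.29.

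Dual-score cells of the 2 experiments were compared directly in 6310 genes. In the high-resolution plates 86 were higher (1.36% of all genes) and 110 lower (1.74%). The limits of M and E themselves differ between the experiments, so genes that run with either score can differ through the choice itself, and the experiments also differ in patches and, in part, in flow cell. Without high 1 the count was 297 and without high 2 it was 467, and with limits common to all plates edgeR called 0.

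SERPINE2, a secreted protease inhibitor, was 60.6, 50.2, 819 and 280 CPM in low 1, low 2, high 1 and high 2 (log2 difference 3.34, SE 0.45, edgeR adjusted p = 0.00232), and -0.10 with limits common to all plates. POSTN, a matrix protein, was 1.68, 0, 136.98 and 62.3 CPM, and the cytokines CXCL2 and CXCL8 were 0, 10.0, 186 and 33.7 CPM and 8.41, 10.0, 160 and 37.6 CPM. All 4 genes were higher in both high-resolution plates than in either low-resolution plate.

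KLK7, a protease of shedding keratinocytes, was 1486 and 1095 CPM in low 1 and low 2 and 31.0 and 122 in high 1 and high 2 (log2 difference -3.93, SE 0.38, edgeR adjusted p = 0.000555). TMC4 was 43.8, 46.8, 0 and 3.89 CPM, the fucosyltransferase FUT3 43.8, 53.5, 0 and 5.19, and the cytochrome P450 CYP4Z1 52.2, 58.5, 0 and 6.49. The groups of plates did not overlap for any of the 4.

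Of the partial EMT list, 15 of 27 tested genes were higher in the high-resolution dual-score cells and none lower (median 1.16, all genes -0.003). Of 35 epithelial panel genes 8 were lower and none higher (median -1.19), and of 11 desmosome genes 5 were lower. Of 33 G2/M genes edgeR called 0 (3 at an unadjusted p under 0.05, 0 by DESeq2). Over all genes 1.36% were higher and 1.74% lower.

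The difference between dual-score cells and both ends itself differed between the experiments for 141 of 11361 genes (1.24% of all genes, edgeR interaction test). KLK7 was among them, at -2.74 (SE 0.29, adjusted p = 5.4e-05). Under the plate limits, the members lay nearer the epithelial end at low than at high resolution. Genes that run with either score can thus pass this test through the choice itself. The median interaction was -0.87 over 52 epithelial and 0.88 over 55 mesenchymal panel genes, against 0.001 over all genes. The part of the choice was not tested.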

How the data were processed

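SORT-seq was run on sorted cells of 4 samples of patches. The authors deposited expected counts: distinct UMIs per gene and well, corrected for UMI sequences drawn more than once, without scaling or filtering. The submitters' processing notes name STAR 2.7.3a, Seurat 4 and hg38. The correction for 4096 UMI sequences was undone where cells were thinned or their UMIs divided. Wells with 2000 to 9000 features and mitochondrial counts under 40% were kept, spike-ins staying out of totals. All wells of a plate together held between 11709628 and 14992348 counts.

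Counts were summed per plate and cell group, rounded, and tested with edgeR 4.0.16 (TMM, filterByExpr, quasi-likelihood test, Benjamini-Hochberg over all genes tested, threshold 0.05), and DESeq2 1.42.0 served as an alternative test. The SE of a fold change was its size over the root of F. Scripts were tested on simulated data. Plate was the block, since each plate gives every cell group. Each plate is 1 sample. With the block, p-values measure the spread across the 4 plates of the differences between cell groups, estimated over all groups together. Between the experiments no block was used, and p-values measure the spread between the samples of an experiment. Replicate numbers mark biological replicates and pair nothing across the experiments. Cell measures were compared by exact sign-flip tests over the 4 plates (16 sign patterns).

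Named genes were the score genes, the largest rises and falls among genes called with the same direction in all plates and a mean of at least 20 CPM (12 each way against both ends, 5 each way against the other middle cells and between experiments), the 2 highest and 2 lowest members of each list, and all EMT and hybrid factors; members of lists that are named beyond these, such as DSP and KRT15, were chosen after their values were seen. The members and lists were chosen with earlier results of these data known. Some genes that the rule selects are not reported here. Genes are placed by the chromosome in the deposited identifiers.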

Additional observations from a re-analysis of the deposited data

Results flagged for a closer look

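The difference of dual-score cells from both ends differed between the experiments for 141 genes by edgeR's interaction test. Median M minus E of the dual-score cells had opposite signs in the experiments (-0.7227 and -0.7282 at low resolution, 0.8677 and 0.3758 at high resolution). The plate limits also differ between the experiments, so the choice and the experiment cannot be told apart here. The difference was not tested.

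The interaction (high minus low resolution, log2) also passed for single genes among those selected for naming. Genes that run with M or E can pass it through the plate limits, so these values are a description. It was positive for CXCL2 (4.80), SERPINE2 (2.84), NT5E (2.19) and LAMA3 (1.40). It was negative for FUT3 (-3.09), KLK7 (-2.74), DSC2 (-1.996), ALDH1A3 (-1.99), DDIT4 (-1.42), CLDN4 (-1.37), KRT16 (-1.19), DSG3 (-1.19), KRT8 (-0.97) and KRT5 (-0.61).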

How the results depend on the processing

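Gene counts moved by over 1.5 times as follows, for dual-score cells against both ends, the epithelial end, the mesenchymal end and the other middle cells (7, 734, 1440 and 77 called) and between experiments (196). Without the plate block they were 0, 6, 659 and 0. Between experiments, where replicate numbers pair nothing and no block was used, adding the replicate number as a block gave 264, within 1.5 times. DESeq2 gave 133 against both ends, 262 against the other middle cells and 97 between experiments. With no filter on low counts there were 266, 1105, 447 (other middle cells) and 425 (experiments), and 347 interactions in place of 141. Thinning to 10000 UMIs gave 4, 266, 394 and 1. Choosing on one part of the UMIs and testing on the other gave 4 and 425 for the first pair. Leaving mitochondrial rows out of totals gave 3 against both ends and 140 against the other middle cells, and leaving out the highest 10% of UMIs 19 and 8. Without cells above the 75th percentile of cell cycle shares, 0 were called against the other middle cells. With the midpoint on the log scale 65 were called against both ends. Limits common to all plates, chosen after seeing the data, gave 121, 2044 against the epithelial end, 0 between experiments and a share of dual-score cells of 4.33%. Under them LCN2 (-0.46) and ITGB2 (-0.29) against the other middle cells and SERPINE2 (-0.10) between experiments reversed. The causes of these changes were not tested.

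Leaving out 1 plate gave 0 to 42 genes against both ends, 166 to 625 against the epithelial end, 688 to 1565 against the mesenchymal end, 0 to 97 against the other middle cells and 202 to 467 between experiments. Without mitochondrial rows in the totals the mitochondrial share differed by -2.40 points from the epithelial end and 1.85 from the other middle cells, and with thinned cells the G2/M share differed by 0.0166 points from the epithelial end. Of the values of single named genes under the alternatives, 204 kept direction and call, 127 lost the call and 3 reversed. With 13 to 20 dual-score cells a plate, a count of 0 allowed 3.89 to 7.75 CPM, so lower levels could not be compared.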

Other observations

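Of 7 stem marker genes, 12 Notch pathway genes, 18 YAP targets, 19 immediate early and stress genes, 15 mitochondrial genes, 16 hypoxia and glycolysis genes and 21 cholesterol genes tested, edgeR called 0 in dual-score cells against both ends combined (1, 0, 4, 4, 0, 2 and 2 at an unadjusted p under 0.05, and 0, 0, 1, 0, 0, 0 and 1 by DESeq2). Against the epithelial end, 5 of the 19 immediate early and stress genes were lower and none higher, beside 2.81% of all genes lower and 4.13% higher (DUSP1, FOS, FOSB, HSPB1 and JUN; median log2 difference -0.23). Of 18 YAP targets, 4 were higher than in the epithelial end (AXL, CRIM1, GADD45A and NT5E; median 0.34) and 14 were not called. Against the mesenchymal end 7 were lower (median -0.32), beside 5.76% of all genes, and 11 were not called. Of the 15 mitochondrial genes, 6 were lower than in the epithelial end (median -0.20) and 3 higher than in the mesenchymal end (median 0.11), beside 7.86% of all genes. Of the 7 stem markers, CD44 and ITGB4 were higher and ALDH1A3 lower than in the epithelial end, and 4 were not called. Against the mesenchymal end ALDH1A3 and SOX9 were higher and CD44 and PROCR lower, and 3 were not called. The groups were cut along M minus E, so these counts against one end are a description.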
